A study of Homo sapiens with 6 samples.

Results

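The NRF2 and thioredoxin antioxidant genes are 10 genes that cells use to sense and remove peroxides and other oxidants, and their messenger RNAs were followed in a leukaemia line in which fibrillarin was depleted. They were picked by symbol (NFE2L2, KEAP1, GCLC, GCLM, TXN, TXNRD1, SRXN1, NQO1, PRDX1 and GPX4) from a table of 31966 genes, and each symbol had 1 row. The cells were Kasumi-1, a human cell line from acute myeloid leukaemia with the fusion gene RUNX1-RUNX1T1. In the FBL knockdown group (n = 3) they expressed a hairpin RNA against FBL, the gene of fibrillarin, a methyltransferase of ribosomal RNA. In the control group (n = 3) they expressed a hairpin against luciferase. Both hairpins were induced by doxycycline, given to every sample at 100 ng/ml for 72 h. The labels name a single hairpin per group and do not state if the replicates were independent cultures; the spread behind every p-value is that between these samples and may be technical.

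As background, NRF2 (encoded by NFE2L2) is a transcription factor that is made continuously and destroyed at once: KEAP1 holds it and passes it to a CUL3 ubiquitin ligase. Oxidants and electrophiles modify KEAP1, NRF2 then escapes, pairs with a small MAF protein and binds antioxidant response elements in DNA. Its known targets include both subunits of glutamate-cysteine ligase, NQO1, and the thioredoxin genes TXN, TXNRD1, PRDX1 and SRXN1. NRF2 is controlled mainly as a protein, and only RNA was counted here. GPX4 belongs beside them as the glutathione peroxidase that reduces lipid hydroperoxides in membranes and holds back ferroptosis, a form of death by lipid peroxidation.

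The DNA sequence that NRF2 reads was looked up in the start regions of these genes. RefSeq promoter windows on GRCh38.p14, from 250 bases before to 50 bases after a start site, matched 9 of the 10 genes in 14 windows; PRDX1 had no entry. The core of the antioxidant response element, TGACNNNGC, was searched on both strands. Its first letters are shared with the binding sites of AP-1 and of NF-E2. It occurred in 4 windows, those of GCLM, KEAP1 (1 of 2 windows) and TXNRD1 (both windows), so that 3 of 9 genes held it. Over the whole genome 13.35% of 35116 windows of that length and 16.06% of 27305 genes held it. A match is a description of the letters and not a binding site. Bases outside these windows were not searched, so a gene without a match here may hold the element elsewhere. The following 30-base stretches are shown because they carry the element in the same orientation in a gene that did not pass the test (GCLM) and in 2 that fell (KEAP1 and TXNRD1). The element is in capitals and reads in reverse on the strand shown, which is that of the gene.
GCLM: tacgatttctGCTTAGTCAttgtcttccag
KEAP1: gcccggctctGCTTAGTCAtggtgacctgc
TXNRD1: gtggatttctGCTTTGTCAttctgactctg
The windows were chr1:93909381-93909680 (minus strand) for GCLM, chr19:10502722-10503021 (minus strand) for KEAP1 and chr12:104286782-104287081 (plus strand) for TXNRD1. GCLM and KEAP1 held the identical word, TGACTAAGC when read on the opposite strand, and TXNRD1 held TGACAAAGC. The same windows held other matches: that of KEAP1 a second one, TGACACGGC on the strand of the gene, and the other window of TXNRD1 a pair, TGACTTCGC and, in reverse, GCTCCGTCA.

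A further pair of sequences marks what TXNRD1 and GPX4 share. Both are selenoproteins, in which a TGA codon inside the coding sequence is read as selenocysteine, the residue that does the chemistry in each enzyme. Among the 10 genes the annotation (GENCODE v29, GRCh38) marks such a codon only in these, and it is shown in capitals.
TXNRD1: agcatcctccaggctggctgcTGAggttaa
GPX4: gtggcctcccagTGAggcaagaccgaagta
Codons were counted in the transcript with the longest coding sequence among those marked with this codon (7 for TXNRD1, 8 for GPX4). In TXNRD1 (chromosome 12, 104348413 to 104348415, plus strand) 1 codon lies between the selenocysteine codon and the stop codon. In that transcript of GPX4 (chromosome 19, 1105403 to 1105405, plus strand) it is codon 46 of 242, and 196 codons follow it. Other transcripts were not counted and may differ.

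The libraries held 85556322 to 95023102 counts in the knockdown group and 88541034 to 103148412 in the control group. FBL itself stood at 54.0, 32.4 and 44.9 counts per 1e6 counts (CPM, on TMM-scaled totals) in knockdown libraries, against 580, 550 and 544 CPM in control libraries, so each library matched its label. Of 8 markers of this line and of myeloid cells 7 were tested, and 1 rose and 1 fell. Over all tested genes 15.8% rose and 17.0% fell at the same threshold. CD34, a marker of immature blood cells, averaged 4.03 CPM in knockdown and 2.55 CPM in control libraries (log2 fold change 0.66, edgeR adjusted p = 0.0024), and MPO, a myeloid granule enzyme, 5413 CPM in knockdown and 7256 CPM in control libraries (-0.42, edgeR adjusted p = 0.0134). Neither marker's groups overlapped, which held for 45.2% of all tested genes. Any part of these changes in the results below was not tested. RUNX1, RUNX1T1, KIT, CD33 and SPI1 did not pass (log2 fold changes from -0.20 to 0.15), and ITGAM was near 0 in both groups. Markers of lymphoid, epithelial, stromal, endothelial and red cells (8 found in the table) summed to 1.43 to 1.89 CPM in knockdown and 1.21 to 1.54 CPM in control libraries. Most of this sum was the B cell marker CD79A, with 1.12 to 1.47 CPM in knockdown and 0.847 to 1.13 CPM in control libraries. Its groups overlapped and it did not pass. The first principal component of log2 CPM carried 60.0% of the variance, with the groups on either side. On the second, with 17.9%, FBL knockdown replicate 1 (17.7) and control replicate 2 (30.4) stood apart from the others. These lay between -24.9 (control replicate 1) and -4.39 (control replicate 3).

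These genes spanned a wide range of levels. By RPKM, the authors' deposited length- and depth-scaled read count, which allows genes of different length to be compared, the order of the means over all 6 libraries was GPX4 (559), TXN (246), NQO1 (125), PRDX1 (75.3), KEAP1 (31.0), TXNRD1 (4.05 to 6.47 over the libraries), GCLM (1.56), NFE2L2 (0.788), GCLC (0.501) and SRXN1 (0.0217). None of the 9 neighbouring pairs in this order had ranges that overlapped over the 6 libraries. GPX4 lay above 99.3% of tested genes, TXN above 98.7% and NQO1 above 97.4%, whereas NFE2L2 lay above 39.6% and GCLC above 32.1%. The inhibitor KEAP1 was therefore far more abundant as RNA than the factor it holds.

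**Figure D1:**
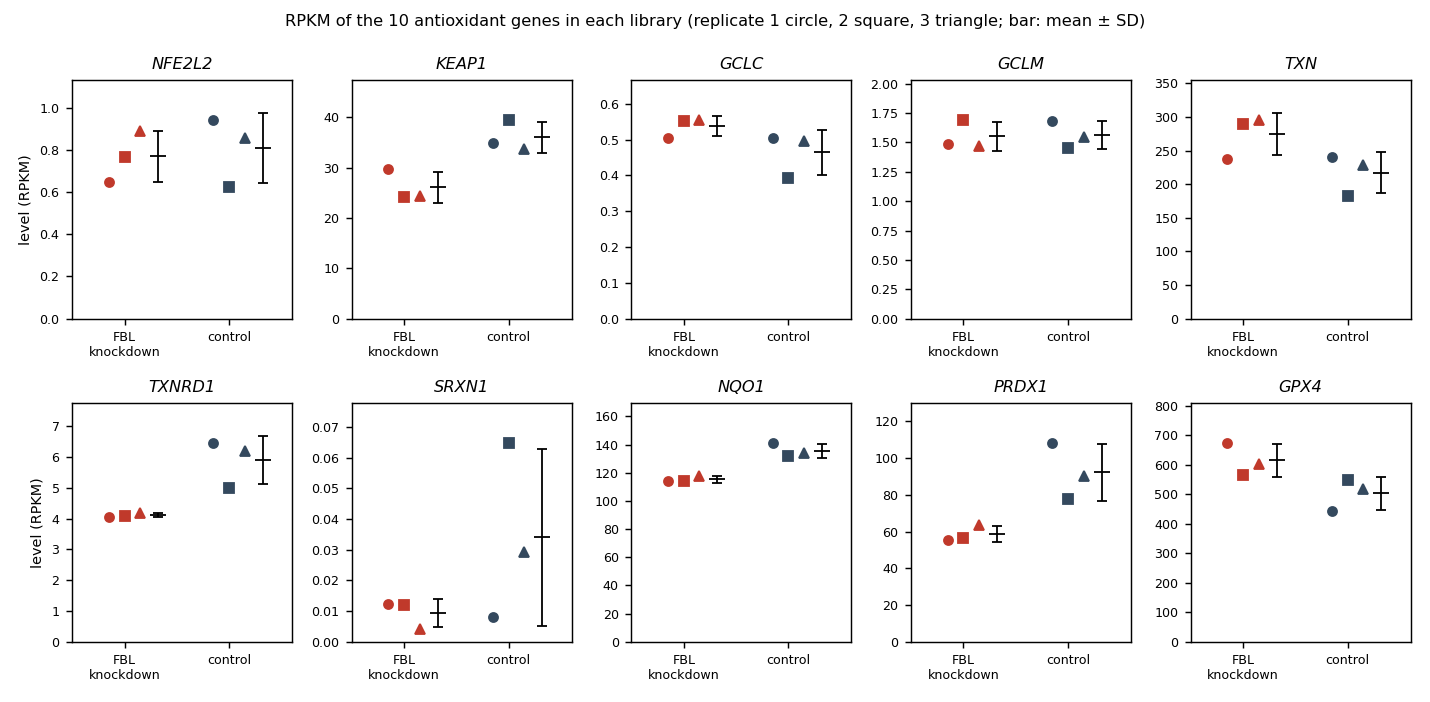
Level in RPKM (y axis, linear, from 0) of the 10 antioxidant genes in each of 3 FBL knockdown libraries (red, left) and 3 control libraries (dark, right), with symbols for replicate number and a bar for the mean ± SD. The groups do not overlap for KEAP1, TXNRD1, NQO1, PRDX1 and GPX4, and overlap for the other 5.

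Comparing FBL knockdown with control, the peroxide-clearing peroxiredoxin PRDX1, the thioredoxin reductase TXNRD1 and the NRF2 inhibitor KEAP1 fell 1.57-fold, 1.43-fold and 1.38-fold respectively. NQO1 fell 1.17-fold and GPX4 rose 1.23-fold, marginal calls that were lost in 12 and 10 of 18 alternative settings. NFE2L2 itself, GCLC, GCLM and TXN did not pass the test, though TXN passed in 7 of the alternative settings. Counts were tested over all 18486 genes that passed a filter on low counts by the quasi-likelihood test of edgeR, with p adjusted after Benjamini and Hochberg and a threshold of 0.05. Among all those tested, 32.8% of genes passed, 15.8% higher and 17.0% lower; with upper-quartile scaling the genes called higher over all tested were 3597 and the genes called lower over all tested 2528, where TMM scaling gave 2920 and 3141. In bulk samples fewer cells of a kind and less RNA per cell cannot be told apart. Of the 10 antioxidant genes 9 were tested, and 4 passed as lower and 1 as higher. Their median log2 fold change was -0.06, beside -0.01 for all tested genes. Groups did not overlap on CPM for 5 of the 9, those that passed, beside 45.2% of all tested genes. With so many genes changing in this comparison, calls among 9 genes do not by themselves set these genes apart, and this was not tested. The share called over all tested genes was 44.7% at 10 to 100 CPM and 41.4% at 100 CPM or more.

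The sensor was examined first. KEAP1 (ENSG00000079999, GRCh38 chromosome 19, 10486120 to 10503741, minus strand) had 110, 91.6 and 92.8 CPM in knockdown libraries, against 131, 148 and 127 CPM in control libraries. Every knockdown library was below every control library. KEAP1 thus averaged 98.1 ± 10.2 CPM in knockdown and 135 ± 11.1 CPM in control libraries (SD, n = 3 each), 1.38-fold lower, and its log2 fold change was -0.46 ± 0.10 (here and below ± SE; edgeR adjusted p = 0.00474). Without FBL knockdown replicate 3 the call was lost (-0.39, edgeR adjusted p = 0.0525).

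NFE2L2 (ENSG00000116044, chromosome 2, 177227595 to 177392697, minus strand) had 3.83, 4.64 and 5.37 CPM in knockdown libraries, against 5.65, 3.71 and 5.10 CPM in control libraries. The groups overlapped, and the lowest value of all was that of control replicate 2. The log2 fold change was -0.06 ± 0.17 (edgeR adjusted p = 0.804), and its sign turned to 0.05 without FBL knockdown replicate 1 and 0.06 without control replicate 1. AGPS, a gene that overlaps NFE2L2 on the opposite strand, was itself at 11.6 CPM in knockdown and 13.7 CPM in control libraries, and no strand setting is given for the counts, so reads of a shared stretch cannot be told apart. The RPKM ratio of NFE2L2 to KEAP1 was 0.0219, 0.0319 and 0.0364 in knockdown libraries, against 0.0271, 0.0158 and 0.0254 in control libraries, which overlapped (2-sided exact permutation test p = 0.3, or 0.4 adjusted over 4 ratios; 0.1 is the smallest that 3 against 3 can give).

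Glutathione synthesis begins with glutamate-cysteine ligase, in which GCLC is the catalytic and GCLM the modifier subunit. GCLC (ENSG00000001084, chromosome 6, 53497341 to 53616970, minus strand) had 4.22, 4.72 and 4.75 CPM in knockdown libraries, against 4.29, 3.30 and 4.18 CPM in control libraries. Its log2 fold change was 0.22 ± 0.13 (edgeR adjusted p = 0.223), and the groups overlapped through control replicate 1. GCLM (ENSG00000023909, chromosome 1, 93885205 to 93909456, minus strand) had 7.96, 9.29 and 8.05 CPM in knockdown libraries, against 9.15, 7.83 and 8.37 CPM in control libraries. The groups lay on top of each other, with a log2 fold change of -0.00 ± 0.11 (edgeR adjusted p = 0.989). The RPKM ratio of GCLM to GCLC was 2.95, 3.07 and 2.64 in knockdown libraries, against 3.33, 3.71 and 3.12 in control libraries. Every ratio in knockdown was below every ratio in control, by 0.23 on the log2 scale (2-sided exact permutation test p = 0.1, the smallest possible, and 0.2 adjusted over the 4 ratios).

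In the thioredoxin system electrons pass from NADPH through the reductase TXNRD1 to thioredoxin (TXN), which in turn reduces peroxiredoxins such as PRDX1. TXNRD1 (ENSG00000198431, chromosome 12, 104215779 to 104350305, plus strand) had 26.8, 27.7 and 28.4 CPM in knockdown libraries, against 43.5, 33.4 and 41.5 CPM in control libraries. The knockdown values lay close together and below every control value, of which that of replicate 2 was the lowest. TXNRD1 averaged 27.6 ± 0.782 CPM in knockdown and 39.5 ± 5.35 CPM in control libraries (SD, n = 3 each), 1.43-fold lower, for a log2 fold change of -0.51 ± 0.11 (edgeR adjusted p = 0.00387). A pseudogene of a ribosomal protein, RPL18AP3, sits inside the span of TXNRD1 on the same strand. It was counted on its own at 1873 CPM in knockdown and 2179 CPM in control libraries, far above TXNRD1. How reads of a shared stretch were assigned is not given, so their part in the value of TXNRD1 cannot be told apart.

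TXN (ENSG00000136810, chromosome 9, 110243811 to 110256640, minus strand) had 268, 335 and 341 CPM in knockdown libraries, against 275, 207 and 260 CPM in control libraries. FBL knockdown replicate 1 lay below control replicate 1, so the groups overlapped. The log2 fold change was 0.35 ± 0.12 (edgeR adjusted p = 0.0525), just short of the threshold. It passed without FBL knockdown replicate 1 (0.45, edgeR adjusted p = 0.0194), without control replicate 1 (0.42, edgeR adjusted p = 0.0226) and by DESeq2 (0.36, adjusted p = 0.0263). TXN has 4 pseudogenes in the table, which summed to 14.3 CPM in knockdown and 10.7 CPM in control libraries, or 4.46% of the level of TXN, so its value is uncertain by the reads these copies share.

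The reductase was also set against its substrate within each library. The RPKM ratio of TXNRD1 to TXN was 0.0170, 0.0141 and 0.0141 in knockdown libraries, against 0.0269, 0.0275 and 0.0272 in control libraries. Control ratios differed by little from each other, although control replicate 2 had the lowest level of both genes in its group. The difference was -0.86 on the log2 scale (2-sided exact permutation test p = 0.1, the smallest possible, and 0.2 adjusted over the 4 ratios).

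PRDX1 (ENSG00000117450, chromosome 1, 45511036 to 45523047, minus strand), the cytosolic peroxiredoxin that thioredoxin recharges, changed the most of the 9 tested genes. It had 83.2, 87.3 and 97.4 CPM in knockdown libraries, against 165, 117 and 137 CPM in control libraries. All knockdown libraries lay below all control libraries, which varied more. PRDX1 averaged 89.3 ± 7.30 CPM in knockdown and 140 ± 24.1 CPM in control libraries (SD, n = 3 each), 1.57-fold lower, for a log2 fold change of -0.65 ± 0.12 (edgeR adjusted p = 0.00227). MMACHC overlaps PRDX1 on the opposite strand and was at 70.4 CPM in knockdown and 86.9 CPM in control libraries, so reads of the shared stretch cannot be told apart.

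SRXN1 (ENSG00000271303, chromosome 20, 646615 to 653370, minus strand), the sulfiredoxin that repairs overoxidized peroxiredoxins and is often read as a sign of active NRF2, was hardly detected. It had 3, 3 and 1 counts in knockdown libraries, against 2, 17 and 8 counts in control libraries, and was removed by the filter on low counts. The sums were 7 counts in knockdown (95% exact Poisson interval 2.81 to 14.4) and 27 in control libraries (17.8 to 39.3), intervals that cover counting error only. Control replicate 2 gave most of the control counts, and control replicate 1 was as low as the knockdown libraries. AL121758.1, a gene that overlaps SRXN1 on the same strand, was at 0.132 CPM in knockdown and 0.0612 CPM in control libraries. Reads of a shared stretch cannot be told apart. The RPKM ratio of SRXN1 to PRDX1 overlapped between groups (2-sided exact permutation test p = 0.4, also after adjustment over the 4 ratios).

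NQO1 (ENSG00000181019, chromosome 16, 69706996 to 69726951, minus strand), the quinone reductase and a standard readout of NRF2 in human cells, was abundant in both groups. It had 366, 375 and 387 CPM in knockdown libraries, against 461, 426 and 434 CPM in control libraries. The groups did not overlap, and the spread within each was small. NQO1 averaged 376 ± 10.7 CPM in knockdown and 440 ± 18.1 CPM in control libraries (SD, n = 3 each), 1.17-fold lower, for a log2 fold change of -0.23 ± 0.08 (edgeR adjusted p = 0.0424). The call is marginal: it was lost in 12 of 18 alternative settings, among them the omission of any 1 library other than control replicate 2 (edgeR adjusted p = 0.0916 to 0.147), while the sign held in all 18. A transcript antisense to NQO1, AC092115.2, was counted at a small share of the level of NQO1 (17.5 CPM in control libraries).

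GPX4 (ENSG00000167468, chromosome 19, 1103926 to 1106791, plus strand), the most abundant of the 10 genes, was the only one called higher. It had 1344, 1154 and 1230 CPM in knockdown libraries, against 894, 1103 and 1041 CPM in control libraries. The groups were separated by a small gap between FBL knockdown replicate 2 and control replicate 2. GPX4 averaged 1243 ± 95.4 CPM in knockdown and 1013 ± 107 CPM in control libraries (SD, n = 3 each), 1.23-fold higher, for a log2 fold change of 0.30 ± 0.10 (edgeR adjusted p = 0.0444). This call was also marginal, being lost in 10 of 18 alternative settings and without any 1 library other than control replicate 2 (edgeR adjusted p = 0.0583 to 0.172).

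**Figure D2:**
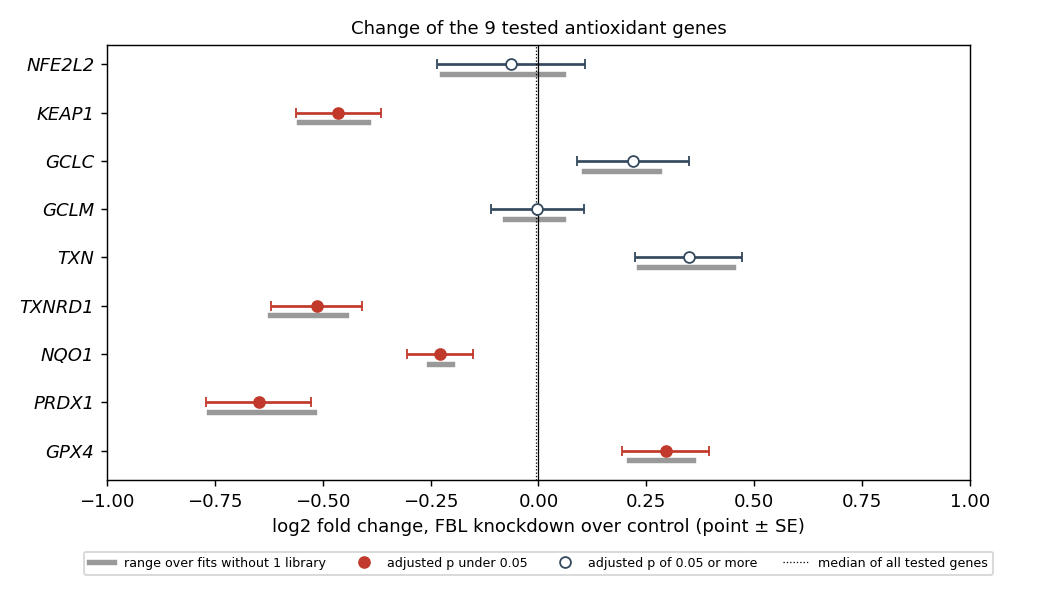
Log2 fold change of FBL knockdown over control (x axis; point ± SE, n = 3 against 3) for the 9 tested antioxidant genes, filled red where edgeR's adjusted p was under 0.05, with a grey bar for the range over the 6 fits that leave out 1 library. PRDX1 (-0.65), TXNRD1 (-0.51), KEAP1 (-0.46) and NQO1 (-0.23) lie below 0 with their whole bars, GPX4 (0.30), TXN (0.35) and GCLC (0.22) above 0, and the bars of NFE2L2 and GCLM cross 0.

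The 2 libraries that stood apart on the second principal component also stood at the edge of their groups for many of these genes. FBL knockdown replicate 1 was the lowest knockdown library for NFE2L2, GCLC, GCLM, TXN, TXNRD1, NQO1 and PRDX1 by CPM and the highest for KEAP1 and GPX4. Control replicate 2 was the lowest control library for the same 7 genes and the highest for KEAP1 and GPX4. Being at an edge was not particular to these libraries. Control replicate 1, at -24.9 on that component, was the highest control library for the same 7 genes and the lowest for GPX4. FBL knockdown replicate 1 and control replicate 2 were then left out together, an alternative chosen after the data were seen. PRDX1 (-0.70), TXNRD1 (-0.59), KEAP1 (-0.48) and GPX4 (0.31) kept their calls. TXN passed at 0.35 (edgeR adjusted p = 0.00586), and NQO1 (-0.22) lost its call (edgeR adjusted p = 0.0587).

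**Figure D3:**
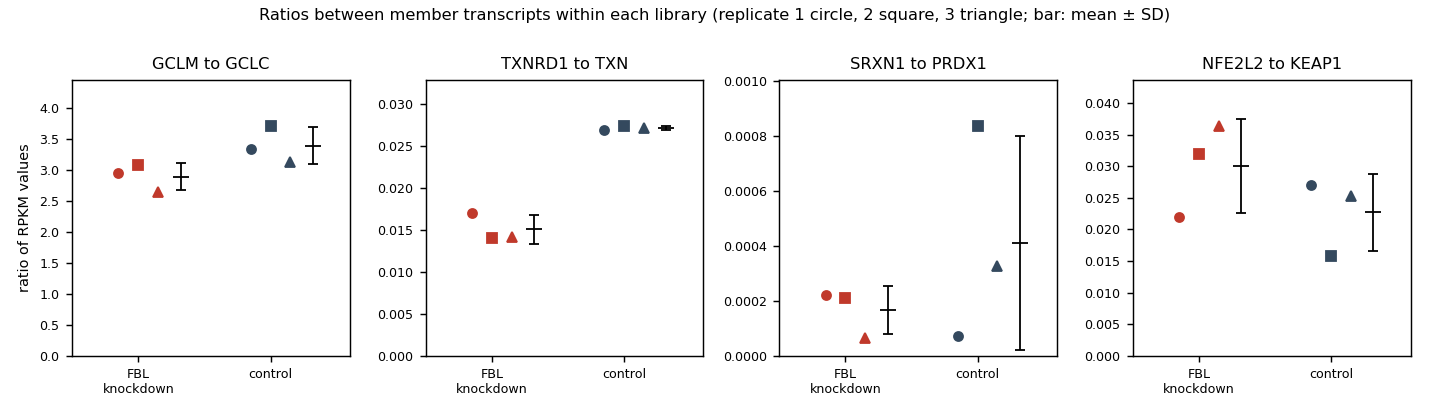
Ratio of RPKM values between 2 genes within each library (y axes, linear, from 0), in 3 FBL knockdown libraries (left, red) and 3 control libraries (right, dark), with the mean ± SD. The ratios of GCLM to GCLC and of TXNRD1 to TXN do not overlap between groups, and those of SRXN1 to PRDX1 and of NFE2L2 to KEAP1 do.

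Other genes of redox defence were read from 7 lists written from general knowledge, but with earlier results of these data known. Their shares are therefore a description only. Of their 116 tested genes 20 rose and 30 fell, or 43.1%, beside 32.8% of all tested genes. The share called depends on level, and the lists hold more abundant genes than the table as a whole. Under 10 CPM 9 of 30 list genes were called, beside 25.7% of all tested genes at that level; from 10 to 100 CPM 23 of 55 (41.8%), beside 44.7%; and at 100 CPM or more 18 of 31 (58.1%), beside 41.4%. Without FBL knockdown replicate 2, FBL knockdown replicate 3 or control replicate 3 the count of 50 was 30, 30 and 31. Called genes went in both directions in every list apart from that of superoxide dismutases and catalase. Over all tested genes 15.8% were called higher and 17.0% lower. In the genes that control NRF2, 1 of 12 rose and 4 fell, with a median log2 fold change of -0.12; 2 rose without FBL knockdown replicate 1 or control replicate 1, and 2 fell without FBL knockdown replicate 2 or 3. NFE2L1, the related factor NRF1 that drives proteasome genes, had the largest fall of the list genes named here (-1.08 ± 0.10, edgeR adjusted p = 4.07e-05). It had 97.1, 81.8 and 81.1 CPM in knockdown libraries, against 190, 191 and 170 CPM in control libraries, groups that lay far apart. The small MAF protein MAFK (-0.63 ± 0.18) and SQSTM1, the autophagy receptor that competes for KEAP1 (-0.54 ± 0.09), fell as well, and the blood cell factor NFE2 rose (0.63 ± 0.12). MAFK lost its call in 5 of 18 settings, among them without FBL knockdown replicate 2 or 3 (edgeR adjusted p = 0.0923 and 0.0933). CUL3, named for its role above, was at 0.01 ± 0.16 and did not pass.

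Among 20 further NRF2 targets 4 rose and 6 fell (median 0.04). The count that rose was 2 without any 1 library other than control replicate 2, where it was 3, and the count that fell was 4 to 7 when 1 library was left out. The ferritin chains rose, FTH1 by 0.71 ± 0.09 and FTL by 0.66 ± 0.09 on the log2 scale (edgeR adjusted p = 0.000188 and 0.000443). FTL, the light chain of the iron store, had 20361, 18748 and 18713 CPM in knockdown libraries, against 11921, 12424 and 12279 CPM in control libraries, with no overlap. Both ferritin genes have processed pseudogenes, and reads shared with those copies make their values uncertain. The iron-binding protein PIR (-0.75 ± 0.10) and the aldehyde reductase AKR1A1 (-0.59 ± 0.09) fell. HMOX1, the haem oxygenase, named for its place as a textbook target, was at 0.13 ± 0.09 and did not pass (edgeR adjusted p = 0.279). SLC7A11, another target on this list, fell at a low level (-0.81 ± 0.21, edgeR adjusted p = 0.0142). It averaged 0.648 CPM in knockdown and 1.14 CPM in control libraries, and its call was not followed through the alternative settings. Of 28 glutathione enzymes 6 rose and 5 fell (median 0.03), but 3 fell without any 1 of the knockdown libraries or control replicate 3, and 4 to 7 rose when 1 library was left out. GGT7, a gamma-glutamyltransferase family member (1.03 ± 0.10), and the glutathione transferase GSTK1 (0.39 ± 0.07) rose, and the transferase GSTZ1 (-0.80 ± 0.10) and the glutathione-degrading CHAC1 (-0.72 ± 0.11) fell.

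Of 21 other thioredoxin and peroxiredoxin genes 4 rose and 2 fell (median -0.01). Without control replicate 2 both counts were 4, without control replicate 3 they were 2 higher and 1 lower, and without any other 1 library 1 fell. The mitochondrial reductase TXNRD2 fell by 0.52 ± 0.09, close to the change of TXNRD1. The thioredoxin-binding protein TXNIP (0.38 ± 0.11), the peroxiredoxin PRDX2 (0.37 ± 0.09) and the methionine sulfoxide reductase MSRB2 (0.37 ± 0.08) rose. TXNIP lost its call in 3 of 18 settings, among them without FBL knockdown replicate 2 and without control replicate 3 (edgeR adjusted p = 0.0888 and 0.0710). PRDX2 lost its call in 1 setting. Of 4 superoxide dismutase and catalase genes 0 rose and 3 fell (median -0.23): CCS (-0.50 ± 0.17), SOD2 (-0.24 ± 0.08) and SOD1 (-0.23 ± 0.07). These calls were marginal, with 0 to 2 genes of the list called lower when 1 library was left out, and were lost in 10, 12 and 11 of 18 settings, and the groups of CCS overlapped.

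Of 18 genes of selenoproteins and their synthesis 3 rose and 5 fell (median -0.05), but 2 fell without FBL knockdown replicate 2, FBL knockdown replicate 3 or control replicate 3, and 6 without control replicate 1. SELENOM (0.82 ± 0.15) and PSTK, a kinase on the way to selenocysteine (0.74 ± 0.11), rose, and SELENOH (-0.76 ± 0.22) and TRNAU1AP, which binds the selenocysteine tRNA (-0.66 ± 0.09), fell. SELENOH had groups that overlapped, and its call was lost in 7 settings. Calls in this list went both ways, as did those over all tested genes (15.8% higher and 17.0% lower). Of the 2 selenoproteins followed above, TXNRD1 fell and GPX4 rose, the latter by a marginal call. Of 13 genes linked to ferroptosis 2 rose and 5 fell (median -0.24). The count that fell was 2 without FBL knockdown replicate 3, and 3 without FBL knockdown replicate 2, control replicate 1 or control replicate 3, and 3 rose without control replicate 2. The lipoxygenase ALOX5 rose at a low level (0.77 ± 0.15, with 1.89 CPM in knockdown and 1.11 CPM in control libraries). The desaturase FADS2 (-0.73 ± 0.09), the cystine transporter chain SLC3A2 (-0.41 ± 0.08) and AIFM2, a ferroptosis suppressor beside GPX4 (-0.38 ± 0.09), fell. AIFM2 lost its call without FBL knockdown replicate 3 (edgeR adjusted p = 0.0553). The adjusted p of edgeR's test for the genes named from these lists as changed ranged from 4.07e-05 for NFE2L1 to 0.0455 for SOD2.

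**Figure D4:**
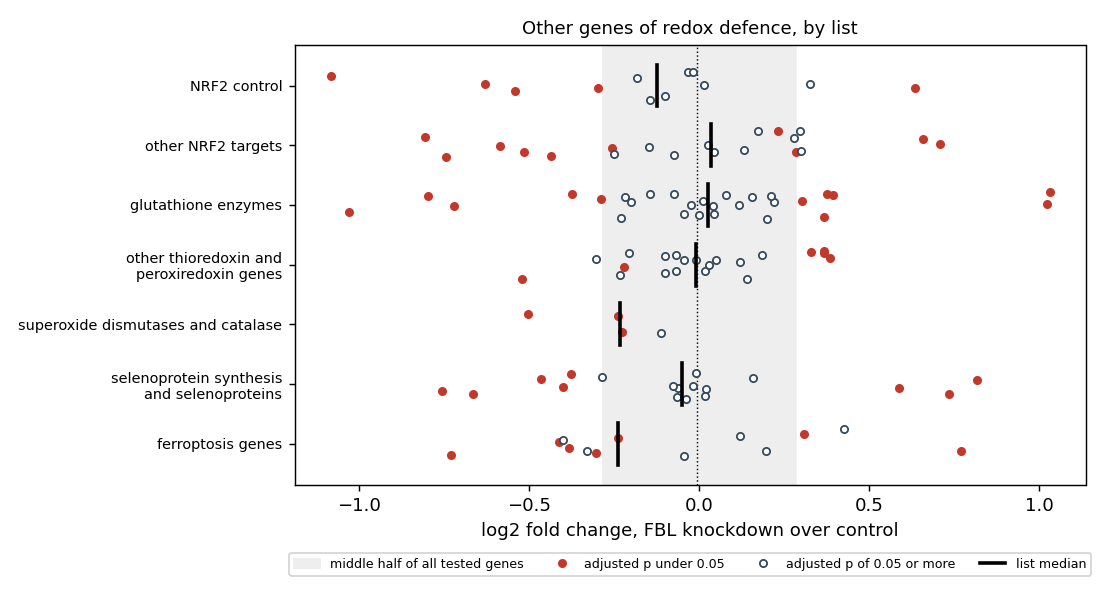
Log2 fold change of FBL knockdown over control (x axis) for the 116 tested genes of 7 lists (rows), filled red where edgeR's adjusted p was under 0.05, with a black bar for each list's median, a dotted line for the median of all tested genes and grey shading for the range that holds the middle 50% of all tested genes. Called genes lie on both sides of 0 in 6 lists, and NFE2L1 lies furthest to the left.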

How the data were processed

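RNA was sequenced from 6 Kasumi-1 samples, 3 per group. Per the submitters' processing notes, reads were trimmed with cutadapt 1.18 and handled with HISAT2 and featureCounts on GRCh38; the sources used here do not give strand or multi-mapping settings. The deposited counts are whole reads per gene. The deposited RPKM values are the authors' own: they match counts divided by length and by TMM-scaled library totals in all 191796 values, at a relative tolerance of 1e-06. They served for levels and ratios.

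Counts were tested with edgeR 4.0.16 (R 4.3.3; TMM scaling, filterByExpr with a minimum count of 10, quasi-likelihood F-test, group as the sole term), with Benjamini-Hochberg adjustment over 18486 genes. The newer dispersion method of edgeR (legacy off) was chosen after both counts had been seen: genes called over all tested were 6061 with it and 6026 with the legacy method. CPM was computed on the same scale. SE is the log2 fold change divided by the square root of F. Ratios were compared with exact permutation tests. Alternatives used DESeq2 1.42.0, limma 3.58.1, other scalings and filters, a replicate block and the omission of each library. Library totals bound counting error only.

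The 10 genes, the lists and the tests were chosen with earlier results of these data known. From each list, up to 4 genes with the largest absolute log2 fold change were named among those that passed with a mean of at least 1 CPM. HMOX1, CUL3 and SLC7A11, the last with a mean under 1 CPM, were named after their values were seen. No 2 libraries were duplicates.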

Additional observations from a re-analysis of the deposited data

How the results depend on the processing

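Calls for PRDX1 and TXNRD1 held in all 18 alternative settings. Over all settings the 9 tested antioxidant genes gave 160 results, of which 120 kept direction and side of the threshold, 23 lost the call, 7 gained it and 10 changed sign; the cause was not tested. The sign changes were all in genes that never passed. NFE2L2 was at 0.0011 with upper-quartile scaling and between -0.223 and 0.0564 when 1 library was left out, being above 0 without FBL knockdown replicate 1 (0.0528) or control replicate 1. GCLM was at 0.0049 by RLE scaling and by DESeq2, 0.0622 with upper-quartile scaling, 0.0458 with the stricter filter, and between -0.0766 and 0.0568 when 1 library was left out. The genes called lower numbered 4, and 2 to 4 when 1 library was left out (2 without FBL knockdown replicate 3). The genes called higher numbered 1, and 0 to 1 when 1 library was left out. They were 2 with upper-quartile scaling, the stricter filter or DESeq2, or with FBL knockdown replicate 1 and control replicate 2 both omitted. They were 0 without a filter or by limma-trend on log2(RPKM + 1) and log2(RPKM + 0.1). The genes called over all tested were 6061, and 3923 to 6943 when 1 library was left out; in the pathway lists 50 passed, and 30 to 50. With FBL knockdown replicate 1 and control replicate 2 both omitted, an alternative chosen after seeing the data, these were 7424 and 54.

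Equal replicate numbers did not deviate together (correlations -0.28, -0.20 and 0.04). Unlike numbers ran from -0.16 to 0.31, the highest being FBL knockdown replicate 1 with control replicate 2. With 3 libraries per group these values cannot tell if equal numbers shared any handling. With the replicate block the genes called over all tested were 3833, with 26 in the pathway lists and 0 of the antioxidant genes as higher. The ratio of SRXN1 to PRDX1 turned to 0.60 on log2(RPKM + 1), where SRXN1 is near 0. Left-out libraries moved it between -1.85 and -0.09, that of GCLM to GCLC between -0.29 and -0.16, that of TXNRD1 to TXN between -0.95 and -0.81, and that of NFE2L2 to KEAP1 between 0.17 and 0.62. With 3 libraries per group, changes the size of that of NQO1 sit at the limit of detection, and SRXN1 was too low to test.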
